A study of Saccharomyces cerevisiae with 6 samples.

Results

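Transcript levels of 10 genes that encode matrix enzymes of the tricarboxylic acid (TCA) cycle, *CIT1*, *ACO1*, *IDH1*, *IDH2*, *KGD1*, *KGD2*, *LSC1*, *LSC2*, *FUM1* and *MDH1*, were examined in yeast given pterostilbene. The genes were taken by name, for their place in the cycle, from the platform annotation of the Affymetrix GeneChip Yeast Genome S98 array. All 10 were found among the 5656 genes measured, each with 1 probe set, the group of short oligonucleotides that reports a transcript. *Saccharomyces cerevisiae* S288C was the strain in both groups, a haploid of mating type alpha that carries *CUP1* and *SUC2* and is marked *gal2*, *mal*, *mel*, *flo1* and *flo8-1*. There were 3 independent cultures given 70 μM pterostilbene, the dimethylether of resveratrol, and 3 given only the solvent dimethyl sulfoxide (DMSO) at 0.25%. Treatment began at an absorbance of 0.2 in synthetic dextrose medium and the cells were collected at 0.5. The dose was set by its inhibition of growth, so a difference between the groups cannot be told apart from one of growth rate or of time in culture. Pterostilbene was added from a stock in DMSO, and the labels do not give the DMSO level of those cultures. A difference in solvent level cannot be told apart either.

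In the TCA cycle, acetyl-CoA and oxaloacetate are joined to citrate, which is isomerized, oxidized to alpha-ketoglutarate and succinyl-CoA, and returned to oxaloacetate through succinate, fumarate and malate. The cycle supplies reducing equivalents to respiration and carbon skeletons, such as alpha-ketoglutarate for glutamate, to biosynthesis. On glucose, *S. cerevisiae* ferments and keeps transcripts of many of these enzymes below their respiratory level. The Hap2/3/4/5 complex is known to activate many of the genes in respiring cells, and the Rtg1p and Rtg3p factors the early ones, *CIT1*, *ACO1*, *IDH1* and *IDH2*, in cells with poor respiration.

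The deposited values are linear intensities, here called signals, which the authors' software had scaled on every array to the same trimmed mean. A signal therefore gives the standing of a transcript among all those on the array, and less of a transcript per cell cannot be told apart from more of the others. Signals were analysed on the log2 scale with limma's moderated test and Benjamini-Hochberg adjustment over all 9275 probe sets tested, and the words rose and fell are kept for an adjusted p under 0.05. On the deposited scale the median of all genes was higher by 0.22 with pterostilbene. Quantile normalization moved this shift to -0.13. Centring each array on its median moved it to -0.23, whereas centring on 6 reference genes gave 0.26. The median used for centring was that of all 9275 probe sets, with or without a named gene, so it does not set the median of the genes to 0. Poly-A control transcripts, bacterial RNAs of a labelling kit, were 3.79-fold higher on the pterostilbene arrays, and the part of this in the values below was not tested. The ratio of the 3′ to the 5′ probe set of actin, a sign of RNA and labelling quality, lay between 1.02 and 1.35 in the controls and between 1.41 and 1.5 with pterostilbene, and its part was likewise not tested. The same ratio of *SPT15* was 2.3 to 4.6 in the controls and 2.40 to 2.68 with pterostilbene, and that of *SRB4* 1.98 to 3.03 and 2.20 to 2.97, so both overlapped.

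The changes lay at 4 steps of the cycle. *KGD1*, *KGD2*, *LSC1* and *CIT1* fell with pterostilbene, by 0.77, 0.52, 0.75 and 0.60 on the log2 scale, and *IDH1* rose by 0.61. *KGD1* and *KGD2* encode the first and second components of alpha-ketoglutarate dehydrogenase and *LSC1* a subunit of succinyl-CoA ligase, so 3 of the 4 genes that fell act on the consecutive reactions from alpha-ketoglutarate to succinate. *ACO1*, *IDH2*, *LSC2*, *FUM1* and *MDH1* did not pass the test. The members that fell were 4 of 10, where 18.4% of all genes fell, and the 1 that rose compares with 35.8% of all genes. The arrays of the 2 groups did not overlap for 5 of the 10, against 68.8% of all genes. The median log2 fold change of the 10 was -0.20, below the 0.22 of all genes.

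**Figure D1:**
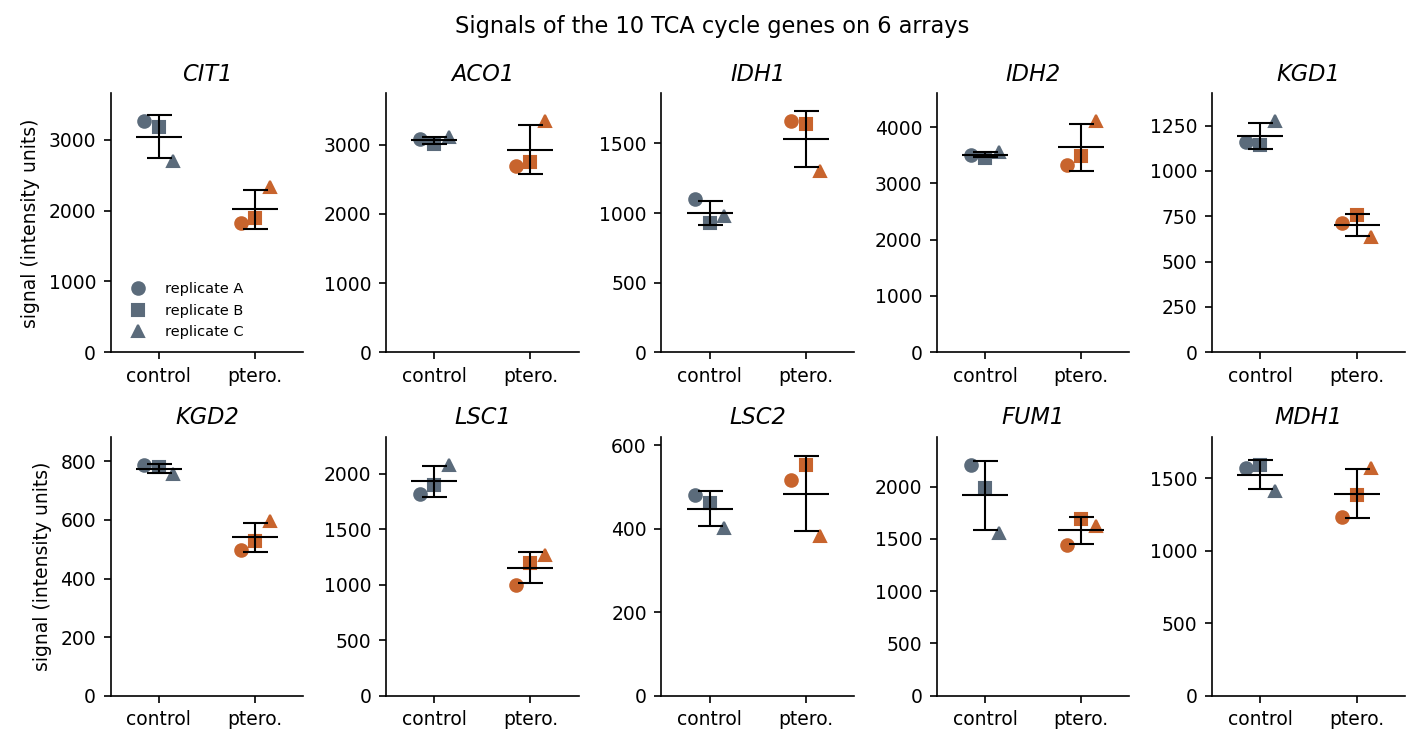
Signals of the 10 TCA cycle genes, in intensity units on linear axes from 0, for 3 control and 3 pterostilbene (ptero.) arrays, with replicates A, B and C as circles, squares and triangles and black bars for the mean ± SD. The pterostilbene signals of *CIT1*, *KGD1*, *KGD2* and *LSC1* lie below all control signals, those of *IDH1* lie above them, and the groups of the other 5 genes overlap.

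The falls of *KGD1*, *KGD2* and *LSC1* passed the test under each of the 4 scalings and with each array left out in turn. The calls of *CIT1* and *IDH1* did not hold in each, as given with those genes. Median centring, which gave the lowest median over all genes, had 8 members lower and 0 higher in limma, also 0 higher at an unadjusted p under 0.05, where 39.0% of all genes were lower and 19.3% higher. Quantile normalization left 3 lower and 1 higher, against 30.4% and 21.6% of all genes, and reference gene centring left 4 and 1, against 17.6% and 37.9%. The median of the members was -0.18, -0.65 and -0.16 under quantile normalization, median centring and reference gene centring.

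**Figure D2:**
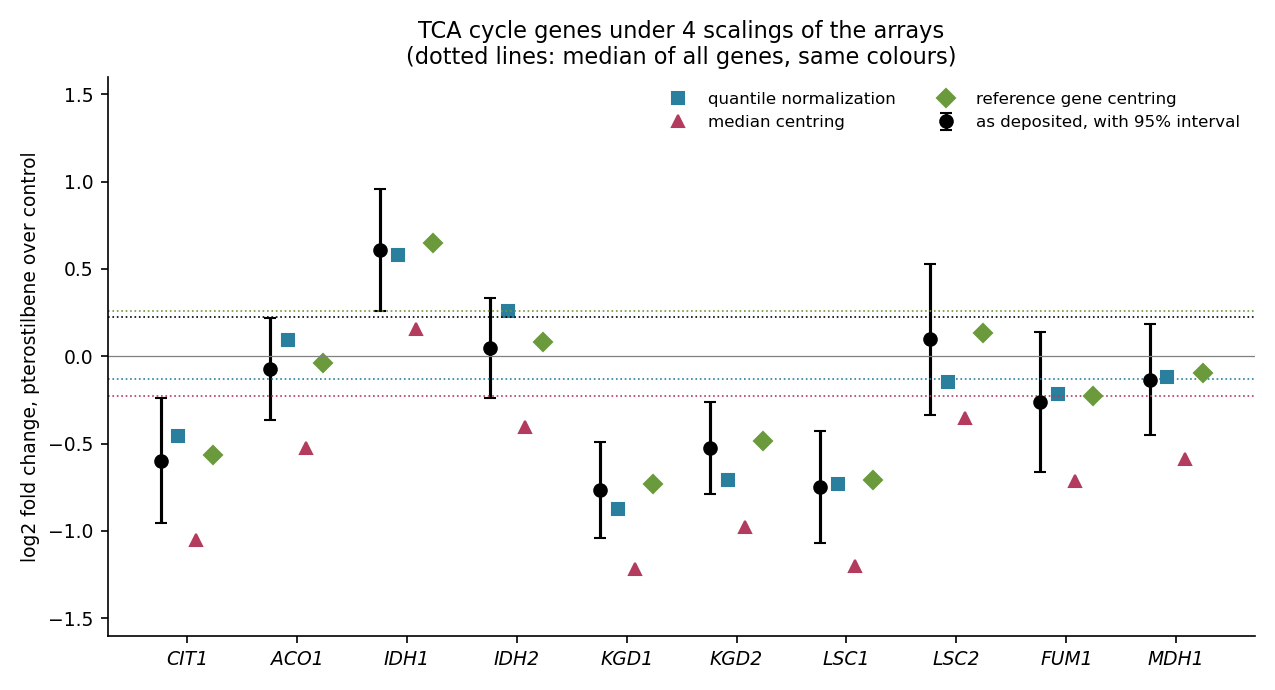
Log2 fold change, pterostilbene over control, of each TCA cycle gene as deposited (black, with limma's 95% interval) and after quantile normalization, median centring and reference gene centring, with dotted lines at the median of all genes in the same colours. *CIT1*, *KGD1*, *KGD2*, *LSC1*, *FUM1* and *MDH1* stay below 0 under every scaling and *IDH1* above it, whereas *ACO1*, *IDH2* and *LSC2* change sign between scalings.

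The probe sets of the members were bright, from the 70.4th to the 95.7th percentile of all genes by mean log2 signal, and genes with bright probe sets were more often lower. The median log2 fold change was -0.37 in the brightest decile of all genes, where 51.2% fell, and -0.10 in the next, where 33.6% fell. *CIT1*, *ACO1*, *IDH2* and *FUM1* lay in the brightest decile, 4 other members in the next, and *KGD2* and *LSC2* in the one after it, whose median was 0.06. Against the median of its decile each of *CIT1*, *KGD1*, *KGD2*, *LSC1* and *MDH1* was lower, and the other 5 members were higher. The part of brightness in these values was not tested. Within a group the members had a median SD on the log2 scale of 0.10 in the controls and 0.17 with pterostilbene, where that of all genes was 0.13 and 0.16. Among the pterostilbene arrays, replicate A gave the lowest signal of 7 members and replicate C the highest of 6, while replicate C gave the lowest signal of *IDH1*, *KGD1* and *LSC2*.

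**Figure D3:**
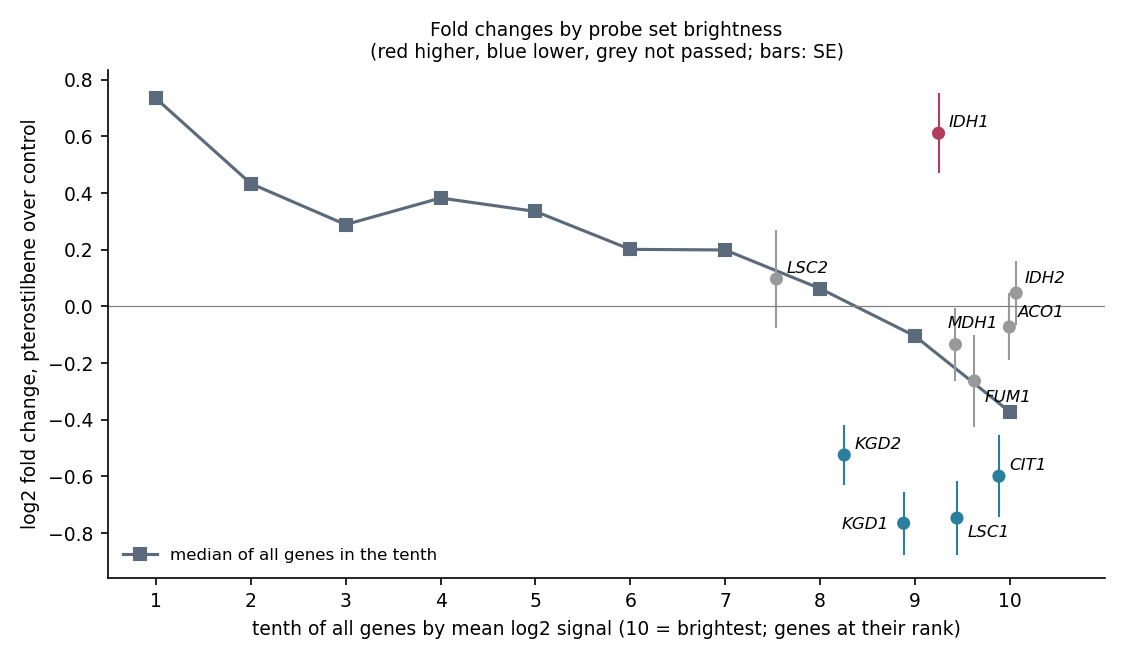
Log2 fold change, pterostilbene over control, against brightness, as the decile of all genes by mean log2 signal. Squares are the median of all genes in each decile, which goes from 0.73 in the dimmest to -0.37 in the brightest, and points are the 10 TCA cycle genes with their SE.

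*CIT1* (YNR001C) encodes the mitochondrial citrate synthase, which begins the cycle. Its signal was 3262, 3174 and 2700.1 in control replicates A, B and C and 1818, 1896 and 2331 with pterostilbene. The groups did not overlap, as was so for 24.5% of all genes in this direction. *CIT1* fell 1.52-fold, or -0.60 on the log2 scale (SE 0.14, adjusted p = 0.0186 in limma). The fold change was -1.05 when arrays were median centred and -0.45 with quantile normalization, where the adjusted p was 0.0712. The adjusted p was 0.0634 without control replicate A, 0.0596 without control replicate B, 0.0600 without pterostilbene replicate A and 0.067 without pterostilbene replicate B, with log2 fold changes of -0.71 to -0.53 over the 6 arrays left out.

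*ACO1* (YLR304C) encodes aconitase, the iron-sulfur enzyme that isomerizes citrate and also helps to maintain mitochondrial DNA. Its control signals were 3079, 3012 and 3109. With pterostilbene they were 2694, 2755 and 3341, so that replicate C alone was above the controls. The log2 fold change was -0.07, with a 95% interval from -0.37 to 0.22 (adjusted p = 0.642 in limma). Quantile normalization turned it to 0.094, and median centring to -0.52 with an adjusted p of 0.00891.

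*IDH1* (YNL037C) and *IDH2* (YOR136W) encode the regulatory and catalytic subunits of the NAD-dependent isocitrate dehydrogenase, which are needed together in the enzyme. The signal of *IDH1* was 1099, 926 and 979 in the controls and 1660 (replicate A), 1640.3 (B) and 1303 (C) with pterostilbene. All pterostilbene signals were above the controls, as for 44.2% of all genes, and replicate C was nearest to them. *IDH1* rose 1.53-fold, or 0.61 on the log2 scale (SE 0.14, adjusted p = 0.0161 in limma). The call was lost without control replicate B (0.56, adjusted p = 0.0543), without pterostilbene replicate A (0.55, adjusted p = 0.0541) and without pterostilbene replicate B (0.56, adjusted p = 0.0605), as well as after median centring (0.16, adjusted p = 0.406).

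For *IDH2* the control signals were 3511, 3458 and 3549.5 and the pterostilbene signals 3318, 3491 and 4103. Replicate A lay below all controls, replicate B among them and replicate C above them. The log2 fold change was 0.05, with a 95% interval from -0.24 to 0.33 (adjusted p = 0.76 in limma). After median centring it was -0.41 with an adjusted p of 0.0194, a direction opposite to that of *IDH1* under the same scaling.

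*KGD1* (YIL125W) encodes the decarboxylating component of alpha-ketoglutarate dehydrogenase, which makes succinyl-CoA. Its signal was 1161, 1140 and 1274 in the controls and 713.5, 755 and 637 with pterostilbene. The lowest control was above the highest pterostilbene signal by more than the range within either group. The groups did not overlap in this direction for 24.5% of all genes, and the share with such a gap was not counted. *KGD1* fell 1.7-fold, or -0.77 on the log2 scale (SE 0.11, adjusted p = 0.00324 in limma), which was the largest decrease among the 10 genes on the deposited scale. It was -1.22 to -0.66 over all 17 alternatives and passed the test in each.

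*KGD2* (YDR148C) encodes the dihydrolipoyl transsuccinylase of the same complex. Its signals were 789, 781 and 757 in the controls and 499, 528 and 595 with pterostilbene, again without overlap. *KGD2* fell 1.44-fold, or -0.52 on the log2 scale (SE 0.11, adjusted p = 0.0101 in limma), which went to -0.98 when arrays were median centred. *KGD4*, which encodes a small protein that recruits the lipoamide dehydrogenase to this complex, went from 318, 309 and 339.8 to 246, 208 and 259.9 and fell by 0.44 (SE 0.12, adjusted p = 0.0289 in limma). Its adjusted p was over 0.05 with any array but pterostilbene replicate C left out. *LPD1*, the lipoamide dehydrogenase gene that this complex shares with pyruvate dehydrogenase, had a log2 fold change of 0.07 (95% interval -0.18 to 0.33, adjusted p = 0.591).

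*LSC1* (YOR142W) and *LSC2* (YGR244C) encode the alpha and beta subunits of succinyl-CoA ligase, the step that forms a nucleoside triphosphate. *LSC1* had control signals of 1816, 1899 and 2083 and pterostilbene signals of 1001, 1200.3 and 1264.5. The lowest control lay above the highest pterostilbene signal by more than the range within either group. For 24.5% of all genes the groups did not overlap in this direction, and the share with such a gap was not counted. The log2 fold change was -0.75 (SE 0.13, adjusted p = 0.00596 in limma), a 1.68-fold fall. It was -1.20 to -0.65 over the alternatives and passed the test in each.

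*LSC2* had control signals of 481, 463 and 402.5 and pterostilbene signals of 516, 554 and 383. Replicates A and B were above the controls and replicate C below them. The log2 fold change was 0.10, with a 95% interval from -0.33 to 0.53 (adjusted p = 0.675 in limma), the widest interval of the 10 genes. The sign turned with quantile normalization (-0.15) and with median centring (-0.36), neither of which passed the test.

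*FUM1* (YPL262W) encodes fumarase, which is shared by the mitochondrion and the cytosol. Its control signals, 2209, 1982 and 1555, spread more than those of any other member on the log2 scale and took in the pterostilbene signals of 1685.5 and 1625.5 but not that of 1438. The log2 fold change was -0.26, with a 95% interval from -0.67 to 0.14 (adjusted p = 0.231 in limma). *MDH1* (YKL085W), the mitochondrial malate dehydrogenase that returns oxaloacetate for the next turn, had control signals of 1569.7, 1593 and 1411.5 and pterostilbene signals of 1231, 1382 and 1567.5. The groups overlapped, and the log2 fold change was -0.13 with a 95% interval from -0.45 to 0.18 (adjusted p = 0.423 in limma). After median centring *FUM1* had -0.72 (adjusted p = 0.011) and *MDH1* -0.59 (adjusted p = 0.00791).

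To compare genes without regard to the scaling of an array, the log2 signal of a partner gene was subtracted from that of the member named first on the same array, and these differences were compared between the groups. A constant applied to an array cancels in them. Of 7 pairs, 3 were subunits of the same enzyme or complex and 4 set a member against an isozyme. In all 7 the groups did not overlap, as was so for 68.3% of all pairs of genes, and each exact two-sided permutation test gave p = 0.1, the smallest that 3 arrays against 3 allow, with an adjusted p of 0.1 over the pairs. The separation itself is thus common on these arrays, and the sizes are given as measured.

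*IDH1* changed by 0.56 more than *IDH2* on the log2 scale, a 1.48-fold shift of their ratio. Relative to the control mean of 0, the difference was 0.14, -0.09 and -0.05 in control replicates A, B and C and 0.81, 0.72 and 0.16 with pterostilbene. Replicates A and B were thus far above the controls and replicate C just above the highest of them. After quantile normalization the shift was 0.32. *LSC1* changed by -0.84 relative to *LSC2*, a 1.79-fold shift toward *LSC2*, with -0.19, -0.07 and 0.26 in the controls and -1.15, -0.99 and -0.39 with pterostilbene. Here too replicate C stood nearest to the controls, and the shift was -1.07 without it. With quantile normalization the shift of this pair was -0.59. The components *KGD1* and *KGD2* differed less, by -0.24, with pterostilbene replicates A and B at -0.10 each, beside controls of -0.06, -0.07 and 0.13, and replicate C at -0.52. Without replicate C this difference was -0.10.

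**Figure D4:**
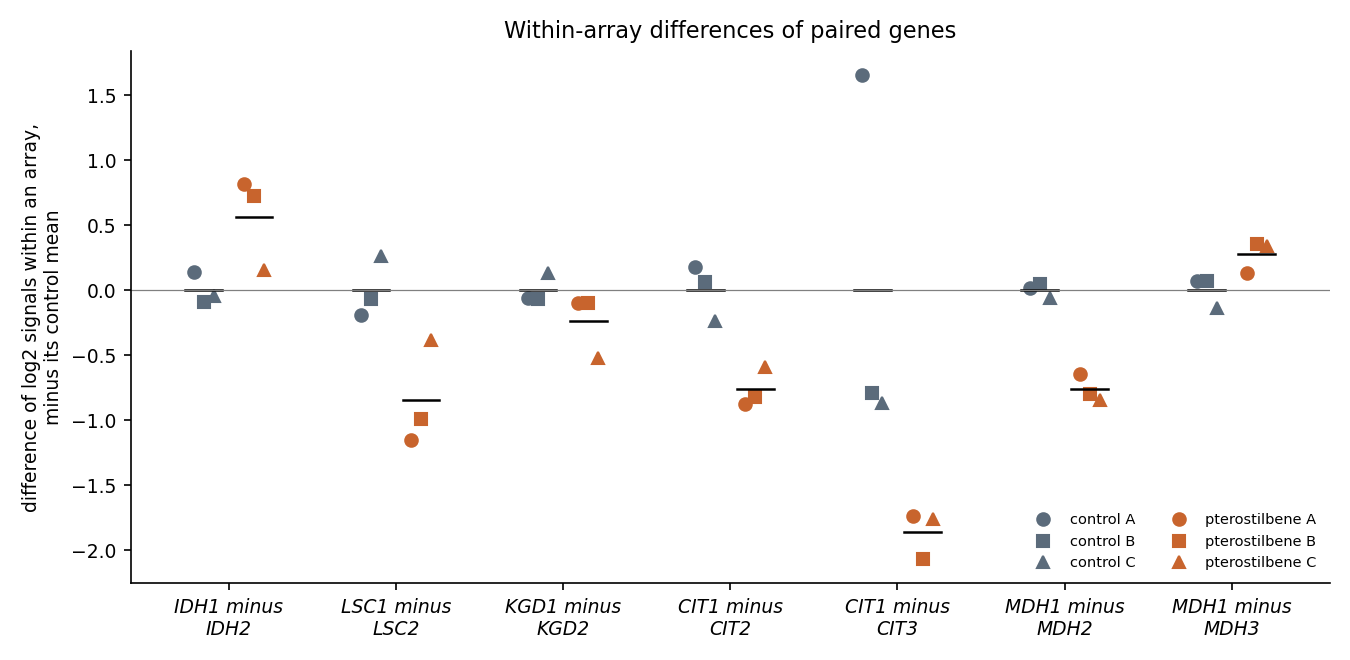
Difference of log2 signals between 2 genes on the same array, minus its mean over the control arrays, for 7 pairs, with replicates A, B and C as circles, squares and triangles and a black line at each group mean. *IDH1* minus *IDH2* lies at 0.16 to 0.81 on the pterostilbene arrays and *LSC1* minus *LSC2* at -1.15 to -0.39, with replicate C of the first just above the highest control of 0.14.

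Against its isozymes, *CIT1* changed by -0.76 relative to *CIT2*, the peroxisomal citrate synthase of the glyoxylate cycle. The controls were at 0.18, 0.06 and -0.24 and the pterostilbene arrays at -0.88, -0.82 and -0.59. *CIT2* itself had a log2 fold change of 0.16 (95% interval -0.07 to 0.39, adjusted p = 0.201 in limma), but passed as higher after quantile normalization (0.39) and as lower after median centring (-0.29). *MDH1* changed by -0.76 relative to *MDH2*, the cytosolic malate dehydrogenase of gluconeogenesis, with controls within 0.06 of 0 and pterostilbene arrays at -0.65, -0.80 and -0.85. After quantile normalization this difference was -0.40. Relative to *MDH3*, the peroxisomal enzyme, *MDH1* changed by 0.28, and by 0.49 after quantile normalization. *CIT3*, a minor mitochondrial citrate synthase, gave a difference of -1.86 from *CIT1*, which rests on a *CIT3* signal of 5.2 in control replicate A. Probe sets for mouse sequences reached 8.8 on these arrays, and without control replicate A the difference was -1.03.

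The other genes around the cycle, 50 in 5 lists, held 17 that were higher, 11 lower and 22 that did not pass the test in limma, where 35.8% of all genes were higher and 18.4% lower, so the lists as a whole were near the background. Of 9 isozymes and paralogs, *MDH2* (0.63, SE 0.16, adjusted p = 0.0218) and the cytosolic isocitrate dehydrogenase gene *IDP2* (0.80, SE 0.14, adjusted p = 0.00648) rose on the deposited scale. Neither passed after quantile normalization or median centring. *MDH3* (-0.41, SE 0.10, adjusted p = 0.018) and the fumarate reductase gene *OSM1* (-0.72, SE 0.14, adjusted p = 0.00928) fell under each scaling. The call of *MDH2* was lost without pterostilbene replicate B or any control array, and that of *MDH3* without replicate A or B of either group, while those of *IDP2* and *OSM1* held with each array left out.

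Succinate dehydrogenase, the step between succinyl-CoA ligase and fumarase, is also complex II of respiration. None of its 4 subunit genes passed limma's test, at an unadjusted p under 0.05 either, and the methods' t-test gave 0 as well. *SDH1*, the flavoprotein subunit, had a log2 fold change of -0.03 (95% interval -0.34 to 0.28), and *SDH2*, *SDH3* and *SDH4* had -0.33, 0.25 and -0.03. After quantile normalization 2 of these 4 were lower, against 30.4% of all genes, and after median centring 3, against 39.0%. The 4 genes of factors that assemble the enzyme rose on the deposited scale, where 35.8% of all genes did. After quantile normalization and after median centring 2 of the 4 were higher, against 21.6% and 19.3% of all genes. *SDH5*, whose product is needed to attach the flavin, had signals of 103.5, 101 and 105 in the controls and 405, 424 and 532 with pterostilbene, which gave 2.12 on the log2 scale (SE 0.13, adjusted p = 2.63e-04). *SDH7* rose by 0.87, *SDH6* by 0.85 and *SDH8* by 0.51, and of these *SDH7* passed the test under all 4 scalings, as *SDH5* did. *SHH3*, a paralog of *SDH3*, also passed, from signals of 2.5 to 6.5 in the controls to 6.9 to 10.6 with pterostilbene, close to those of the mouse probe sets, and its call was lost without any array but control replicate B.

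Of 12 genes listed for pyruvate entry, among which *KGD4* was counted, 2 rose and 5 fell, against 35.8% and 18.4% of all genes. *MPC3*, a subunit of the mitochondrial pyruvate carrier used in respiring cells, had signals of 102, 64.6 and 95 in the controls and 626, 643 and 516 with pterostilbene, a rise of 2.79 on the log2 scale (SE 0.21, adjusted p = 4.05e-04). *MPC2*, the alternative subunit of fermenting cells, rose by 0.45 (SE 0.11, adjusted p = 0.017) but was at -0.0019 after median centring. *MPC1*, the subunit common to both forms, had 0.07 (adjusted p = 0.719). *LAT1*, the acetyltransferase of pyruvate dehydrogenase, fell by 0.83, and *MAE1*, the mitochondrial malic enzyme gene, by 0.67, both under each scaling. *PDA1* (-0.42), *PYC2* (-0.43) and *KGD4* also fell, and *PDA1* did not pass after quantile normalization. The call of *PDA1* was lost without control replicate A, that of *PYC2* without replicate A or B of either group, and that of *MPC2* without control replicate B or pterostilbene replicate A or B.

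Carriers that exchange cycle intermediates across the inner membrane had the deepest falls among the 50 genes. Of 10, 4 fell under each scaling and with each array left out. Of all genes 18.4% fell on the deposited scale, and 30.4%, 39.0% and 17.6% were lower after quantile normalization, median centring and reference gene centring. The probe sets of the 4 were bright, at percentiles 76.6 to 92.0, and the part of brightness was not tested. *CTP1*, the citrate carrier gene, had signals of 1434, 1387 and 1237 in the controls and 487, 482 and 526 with pterostilbene, and its log2 fold change was -1.44 (SE 0.11, adjusted p = 3.87e-04). *OAC1*, for oxaloacetate, had -1.22, *DIC1*, for dicarboxylates, -1.04, and *YHM2*, for citrate and alpha-ketoglutarate, -0.92. *YIA6*, which carries NAD, rose by 0.83 and did not pass after quantile normalization.

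Among the 8 regulator genes 7 rose on the deposited scale, where 35.8% of all genes did. After quantile normalization 3 were higher, against 21.6% of all genes, and after median centring 4, against 19.3%. Their probe sets were dimmer than most of the members', at percentiles 11.6 to 71.2. *HAP4*, the activation subunit of the Hap complex, had signals of 139.5, 147.5 and 99.7 in the controls and 248, 260.1 and 345 with pterostilbene, and it rose by 1.15 (SE 0.21, adjusted p = 0.00736). *RTG3* rose by 1.1 (SE 0.14, adjusted p = 0.0021) and *MKS1*, a negative regulator of the Rtg factors, by 1.26 (SE 0.19, adjusted p = 0.00352). *HAP4*, *RTG3* and *MKS1* passed the test under each scaling. *RTG1* (0.99), *HAP2* (0.83), *HAP3* (0.47) and *HAP5* (0.35) did not pass after quantile normalization. After median centring *RTG1* passed (0.54, adjusted p = 0.0188 in limma) and the 3 *HAP* genes did not. Under quantile normalization and median centring *HAP3* was at 0.06 and 0.02, and *HAP5* turned to -0.09 and -0.10. The call of *HAP3* was lost with any array but control replicate C left out, and that of *HAP5* with any but pterostilbene replicate A. *RTG2*, the sensor of the pathway, had 0.13 (95% interval -0.23 to 0.49, adjusted p = 0.493).

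**Figure D5:**
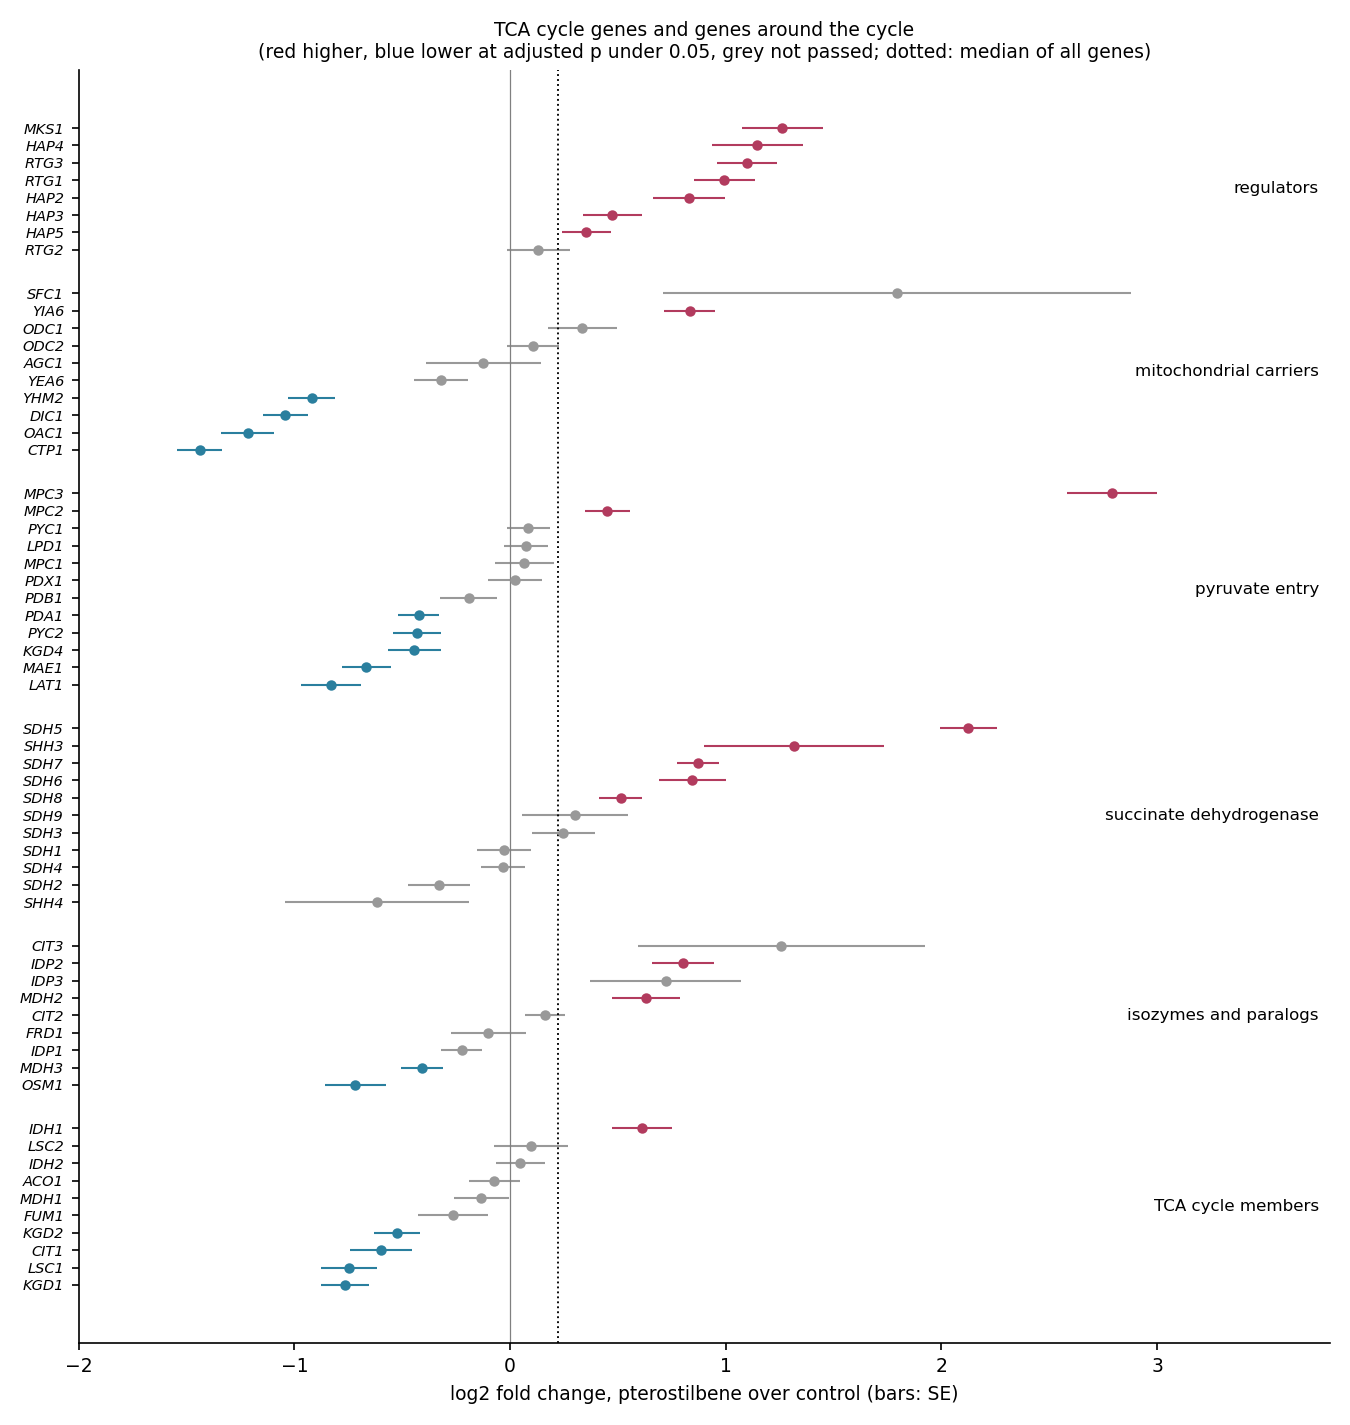
Log2 fold change, pterostilbene over control, with SE bars, of the 10 TCA cycle genes and of 50 genes around the cycle in 5 lists, with red for higher, blue for lower and grey for not passed at adjusted p under 0.05, and a dotted line at 0.22, the median of all genes. The carriers *CTP1*, *OAC1*, *DIC1* and *YHM2* lie at -1.44 to -0.92, below every TCA cycle gene. Of 8 regulators 7 are higher, against 35.8% of all genes.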

How the data were processed

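Per the labels, total RNA of 3 control and 3 pterostilbene cultures was hybridized to 6 arrays. The authors deposited linear intensity values, 1 signal per probe set, from Affymetrix software that the submitters' processing notes name as GCOS 1.1. The algorithm is not given in the sources used here, and the 2% trimmed mean was 500.4 to 500.5 on every array. Signals of 0 (23 values) were raised to 0.1, the smallest positive signal, before log2. The 60 control probe sets were left out. The platform annotation gave 6504 probe sets 1 gene and 328 several, from which none was named, and the rest are unnamed here. A gene was represented by its brightest probe set, and all 5656 names matched RefSeq's R64 table. No probe or promoter sequences and no coordinates were used here.

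The 2 groups were fitted over 9275 probe sets by lmFit and eBayes of limma 3.58.1 (R 4.3.3), a step tested on simulated data. The simulated arrays had independent noise, few changed probe sets and no difference in scaling, so that test does not bear on how the calls depend on scaling. Pairs were tested with scipy 1.17.1. The number of arrays limits the precision. The members and lists were chosen with earlier results of these data known. All members, list genes past the threshold, *CIT2*, *SDH1* and *LPD1* were named by rule. *CIT3*, *SDH2*, *SDH3*, *SDH4*, *MPC1* and *RTG2* were named after their values were seen. Alternatives covered scaling, low signals, a filter on dim probe sets, the test, the replicate letter, probe set averaging and each array left out.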

Additional observations from a re-analysis of the deposited data

Results flagged for a closer look

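The poly-A control transcripts, bacterial RNAs that are not part of the comparison of yeast genes, were 3.79-fold higher on the pterostilbene arrays over 15 probe sets, while the hybridization controls differed by 1.06-fold.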

How the results depend on the processing

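With 4 genes lower, 1 higher and a median of -0.20, median centring gave 8, 0 and -0.65. Leaving out each array gave 3 to 4 genes lower, 0 to 1 higher and medians of -0.30 to -0.12. Over all 5656 genes it gave 743 to 1089 lower and 1616 to 1869 higher, against 1041 and 2025 with every array, so calls were also lost among genes at large. The 1 higher gene, *IDH1*, was lost without control replicate B, pterostilbene replicate A or pterostilbene replicate B, and the median was -0.30 without control replicate C. With the replicate letter as a block 2 members were lower, *CIT1* (adjusted p = 0.0762) and *KGD2* (adjusted p = 0.0511) not passing, and over all genes 702 in place of 1041 were lower and 1589 in place of 2025 higher. The labels give the letters no shared source, and same-letter deviations correlated at -0.09, -0.02 and -0.05, so the arrays were not treated as paired. Signs turned for *ACO1* after quantile normalization (0.094), for *IDH2* after median centring (-0.41) and with pterostilbene replicate C left out (-0.043, within -0.043 to 0.11 over the arrays), and for *LSC2* after quantile normalization (-0.15), median centring (-0.36) and without pterostilbene replicate B (-0.0086, within -0.0086 to 0.26 over the arrays). The causes were not tested. Of 170 values for single members, 150 kept their direction and side of the threshold. The dim filter and probe set averaging changed no member's call, and each member has 1 probe set, so averaging could not. The 7 pair differences kept their sign under all 9 alternatives. With each of the 6 arrays left out in turn the sign could not turn, since the groups of each pair did not overlap.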
